A study of Homo sapiens with 9 samples.

Results

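The 37 genes of the human mitochondrial genome were examined in Kyse150, an esophageal squamous cell carcinoma line, as all genes of the Kyse150 count table whose symbol begins with MT-. They comprised 13 protein-coding genes, 2 rRNA genes and 22 tRNA genes among 57820 genes listed. Polyadenylated RNA had been sequenced from Kyse150_shKDM2A, cells given a lentiviral shRNA against KDM2A, a demethylase of lysine 36 of histone H3 (n = 2 libraries), and from Kyse150_shNC, labelled Control (n = 2 libraries). A second line, TE11, has its own table with 2 libraries labelled KDM2A knockdown and 3 labelled Control. Neither the shRNA sequences, nor whether infected cells were pooled or cloned, is stated in the labels. The labels call the replicates independent without saying what was repeated, so the p-values reflect only how far these libraries vary, and that variation can be technical.

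Counts assigned to genes came to 6655571 and 6052883 in the Kyse150_shKDM2A libraries and to 7167055 and 7036676 in the Kyse150_shNC libraries. KDM2A itself stood at 108 and 107 CPM (counts scaled to 1000000 fragments assigned to genes) in Kyse150_shKDM2A, against 169.5 and 170.4 CPM in Kyse150_shNC, a log2 difference of -0.71 (SE 0.07, edgeR adjusted p = 3.87e-09). The keratin gene KRT5 and TP63, a transcription factor of squamous epithelium, were present at 1071 and 1043 CPM and at 129 and 141 CPM in Kyse150_shKDM2A, against 1196 and 1212 CPM and 107 and 95.6 CPM in Kyse150_shNC. Other squamous and epithelial markers also moved: KRT14 rose 2.95-fold (log2 1.56, SE 0.13, edgeR adjusted p = 7.82e-11) to 49.9 and 51.9 CPM in Kyse150_shKDM2A, against 16.2 and 17.1 CPM in Kyse150_shNC. DSG3 and TP63 were called higher, KRT5, EPCAM, CDH1 and SFN lower, and KRT6A was not called. Of the markers of other cell types, PTPRC, COL1A2 and DCN had 0 counts in all 4 libraries, and CD3E, CD68, PDGFRB, CDH5 and VWF had 0 to 10 counts in a library. COL1A1, a collagen gene, stood at 11.4 and 10.9 CPM in Kyse150_shKDM2A, against 6.14 and 6.40 CPM in Kyse150_shNC, and its call was higher (log2 0.78, edgeR adjusted p = 0.00456). The part of these markers in the results was not tested.

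Mitochondrial DNA is transcribed from both strands into long precursors that cover many genes at once. The precursors are cleaved largely at the tRNAs that lie between the other genes, which releases rRNAs, tRNAs and mRNAs, and most of the mRNAs then receive short poly(A) tails. The mRNAs encode subunits of complexes I, III, IV and V of oxidative phosphorylation, and the rRNAs and tRNAs serve the translation of these mRNAs inside the organelle. Neighbouring genes share a precursor, and the steady-state level of each RNA is known to be set in part by its processing, polyadenylation and decay.

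Most genes are coded on the heavy strand, whereas MT-ND6 and 8 tRNAs are coded on the light strand. The only tRNA genes with enough counts to test were 5 of these 8, so their sequences are shown, as GENCODE release 29 transcripts of GRCh38 written 5′ to 3′ with the anticodon in capitals. They are the tRNAs for glutamine (MT-TQ, chrM:4329-4400), tyrosine (MT-TY, chrM:5826-5891), serine (MT-TS1, chrM:7446-7514), glutamate (MT-TE, chrM:14674-14742) and proline (MT-TP, chrM:15956-16023), all on the reverse strand.
MT-TQ: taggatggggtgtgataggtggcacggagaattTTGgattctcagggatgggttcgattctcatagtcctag
MT-TY: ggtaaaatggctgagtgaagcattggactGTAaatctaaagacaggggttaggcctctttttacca
MT-TS1: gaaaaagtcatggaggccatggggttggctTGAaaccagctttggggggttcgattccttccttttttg
MT-TE: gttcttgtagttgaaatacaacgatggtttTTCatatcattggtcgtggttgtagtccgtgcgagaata
MT-TP: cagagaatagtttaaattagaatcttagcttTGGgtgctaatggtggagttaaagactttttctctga

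The comparison of Kyse150_shKDM2A with Kyse150_shNC asked which mitochondrial transcripts differed in level. Mitochondrial transcripts did not move as a block. Of the 37 genes, 20 had enough counts to be tested: the 13 mRNA genes, the 2 rRNA genes and 5 tRNA genes. With edgeR, adjusted p under 0.05 over all genes, 8 were higher and 11 lower in Kyse150_shKDM2A, and MT-ATP8 was not called. Among all 14060 genes tested in that table, 24.8% were called higher and 23.3% lower, 48.2% in all. Groups did not overlap in CPM for 19 of the 20 tested genes, all but MT-ATP8, against 73.1% of all genes tested. The median log2 fold change was -0.19 over the 20 genes and 0.00 over all genes tested. Most of the 20 genes are abundant, and a log2 difference as small as 0.14 passed the test. The called genes are not independent of the filter, which required about 10 counts in 2 libraries and so dropped 17 tRNA genes. MT-TE, among the 11 lower, did not pass it on the Kyse150_shKDM2A libraries alone and also needed a Kyse150_shNC library.

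Mitochondrial genes together held 6.75% and 6.64% of gene counts in Kyse150_shKDM2A, against 5.56% and 5.65% in Kyse150_shNC. The groups did not overlap, but with 2 libraries against 2 an exact permutation test cannot go below p = 0.333, so the difference was not tested. Within the mitochondrial counts, rRNA made up 16.7% and 17.1% in Kyse150_shKDM2A, against 13.3% and 13.2% in Kyse150_shNC. The mRNA share was 82.3% and 82.0% in Kyse150_shKDM2A, against 85.8% and 85.9% in Kyse150_shNC. The tRNA share was 1.06% and 0.982% in Kyse150_shKDM2A, against 0.956% and 0.923% in Kyse150_shNC. Fragments on no gene made up 44.4% and 44.5% of a Kyse150_shKDM2A column, against 43.8% and 43.7% of a Kyse150_shNC column. CPM are shares of a library, so in these bulk samples less RNA per cell and fewer cells of a kind cannot be told apart.

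**Figure D1:**
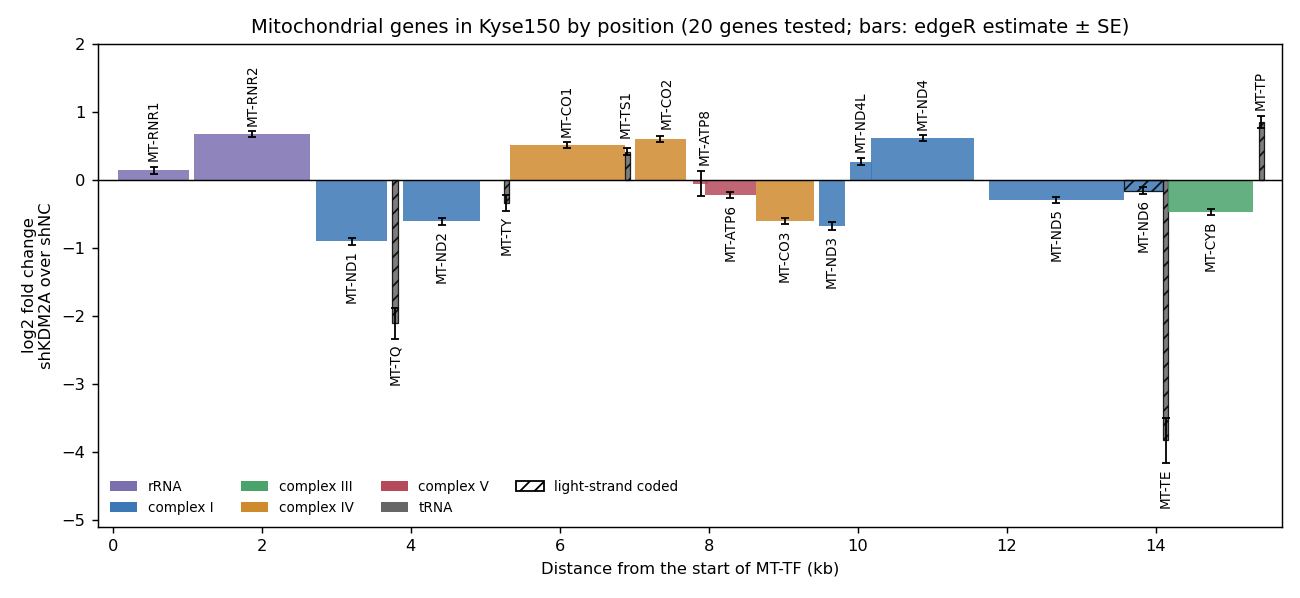
Log2 fold change (Kyse150_shKDM2A over Kyse150_shNC; bars are edgeR estimates ± SE, 2 libraries a group) of the 20 tested mitochondrial genes by distance in kilobases from the start of MT-TF, coloured by gene type and hatched where the light strand codes the gene. Higher and lower genes lie on both sides of 0 along the whole genome. MT-TE reaches the lowest value, -3.83, from 15 and 2 counts in Kyse150_shKDM2A.

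The 2 rRNAs of the mitochondrial ribosome were both called higher, but by unequal amounts. RNA had been selected on poly(A), so counts on the rRNA genes, and their share of mitochondrial counts, need not give the levels of the rRNAs. MT-RNR2, the large-subunit 16S rRNA (chrM:1671-3229), stood at 9164 and 9337 CPM in Kyse150_shKDM2A, against 5649.6 and 5584 CPM in Kyse150_shNC, a 1.59-fold difference (log2 0.67, SE 0.04, edgeR adjusted p = 9.94e-13). MT-RNR1, the small-subunit 12S rRNA (chrM:648-1601), stood at 2095 and 1995 CPM in Kyse150_shKDM2A, against 1724 and 1854 CPM in Kyse150_shNC, log2 0.14 (SE 0.05, edgeR adjusted p = 0.0201). The call of MT-RNR1 was lost without Kyse150_shKDM2A replicate 1 (log2 0.09, adjusted p = 0.219), without Kyse150_shNC replicate 1 (0.08, 0.364) and with DESeq2 (0.14, 0.0545). In counts, MT-RNR1 came to 229 and 214 per 1000 MT-RNR2 in Kyse150_shKDM2A, against 305 and 332 in Kyse150_shNC, so the ratio was lower in each Kyse150_shKDM2A library than in each Kyse150_shNC library.

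Among the 7 complex I genes, which encode membrane subunits of NADH dehydrogenase, 2 rose and 5 fell. MT-ND1 (chrM:3307-4262) stood at 923 and 869.7 CPM in Kyse150_shKDM2A, against 1615 and 1624 CPM in Kyse150_shNC, and fell to 0.535 of control (log2 -0.90, SE 0.05, edgeR adjusted p = 3.10e-14). MT-ND2 (chrM:4470-5511) stood at 2583 and 2507 CPM in Kyse150_shKDM2A, against 3768 and 3738 CPM in Kyse150_shNC, a log2 fold change of -0.61 (SE 0.05). MT-ND3 (chrM:10059-10404), the shortest gene of complex I apart from MT-ND4L, stood at 456 and 421 CPM in Kyse150_shKDM2A, against 690 and 668 CPM in Kyse150_shNC (log2 -0.68, SE 0.05). Each of these genes was lower in both Kyse150_shKDM2A libraries than in either Kyse150_shNC library.

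MT-ND4 (chrM:10760-12137) went the other way, at 8579 and 8734 CPM in Kyse150_shKDM2A, against 5546 and 5389 CPM in Kyse150_shNC, a 1.53-fold rise (log2 0.61, SE 0.04, edgeR adjusted p = 6.73e-12). MT-ND4L (chrM:10470-10766), carried on the same bicistronic mRNA and sharing 7 bases with MT-ND4, stood at 881 and 789 CPM in Kyse150_shKDM2A, against 676 and 661 CPM in Kyse150_shNC (log2 0.27, SE 0.06, edgeR adjusted p = 0.000210). Without Kyse150_shKDM2A replicate 1 its log2 fold change was 0.18 (adjusted p = 0.0260). MT-ND4L counts per 1000 MT-ND4 counts were 103 and 90.3 in Kyse150_shKDM2A, against 122 and 123 in Kyse150_shNC, although 1 mRNA carries both. How the counting treated fragments that touch both genes is not stated, so this ratio of counts cannot be read as a ratio of RNA levels.

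MT-ND5 (chrM:12337-14148) stood at 3388 and 3330 CPM in Kyse150_shKDM2A, against 3887 and 4047 CPM in Kyse150_shNC (log2 -0.29, SE 0.05, edgeR adjusted p = 8.33e-06). MT-ND6 (chrM:14149-14673), the sole mRNA gene of the light strand, lies directly beside it and stood at 988 and 954 CPM in Kyse150_shKDM2A, against 1027 and 1063 CPM in Kyse150_shNC (log2 -0.16, SE 0.05, edgeR adjusted p = 0.0117). Its call was lost with library sizes alone as the scaling (log2 -0.10, adjusted p = 0.0508), without Kyse150_shKDM2A replicate 2 (-0.12, 0.111) and without Kyse150_shNC replicate 2 (-0.13, 0.129). The sources used here do not say whether the counting used strand, so reads from the opposite strand cannot be told apart from those of MT-ND6. Together the complex I genes held 26.4% and 26.5% of mitochondrial counts in Kyse150_shKDM2A, against 31.0% and 30.4% in Kyse150_shNC.

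The 3 complex IV genes, which encode the catalytic core of cytochrome c oxidase, split. MT-CO1 (chrM:5904-7445), the subunit with the oxygen-reducing centre, stood at 20811 and 19763 CPM in Kyse150_shKDM2A, against 13411 and 14093 CPM in Kyse150_shNC, a 1.43-fold rise (log2 0.51, SE 0.05, edgeR adjusted p = 5.93e-10). MT-CO2 (chrM:7586-8269), which takes electrons from cytochrome c, stood at 7745 and 7834 CPM in Kyse150_shKDM2A, against 4883 and 4978 CPM in Kyse150_shNC, a 1.53-fold rise (log2 0.61, SE 0.04). MT-CO3 (chrM:9207-9990), the remaining core subunit, stood at 4077 and 4050 CPM in Kyse150_shKDM2A, against 5918 and 6062 CPM in Kyse150_shNC, and fell to 0.655 of control (log2 -0.61, SE 0.04, edgeR adjusted p = 1.13e-11). The groups were apart for all 3 genes, with MT-CO3 on the opposite side from the other 2. Complex IV genes held 48.4% and 47.6% of mitochondrial counts in Kyse150_shKDM2A, against 43.6% and 44.4% in Kyse150_shNC.

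MT-CYB (chrM:14747-15887), cytochrome b and the only complex III subunit of mitochondrial DNA, stood at 2323 and 2335 CPM in Kyse150_shKDM2A, against 3099 and 3120 CPM in Kyse150_shNC (log2 -0.47, SE 0.05, edgeR adjusted p = 2.59e-09). MT-ATP6 (chrM:8527-9207), a subunit of the proton channel of ATP synthase, stood at 2727 and 2846 CPM in Kyse150_shKDM2A, against 3149 and 3127 CPM in Kyse150_shNC (log2 -0.22, SE 0.05, edgeR adjusted p = 0.000212). MT-ATP8 (chrM:8366-8572) encodes a small ATP synthase subunit and shares 46 of its 207 bases with MT-ATP6. It stood at 12.5 and 15.9 CPM in Kyse150_shKDM2A, against 13.1 and 15.2 CPM in Kyse150_shNC, with overlapping groups and a log2 difference of -0.05 (SE 0.18, edgeR adjusted p = 0.831). Its counts were far under those of MT-ATP6, with which it shares a transcript. They came to 4.57 and 5.57 per 1000 MT-ATP6 counts in Kyse150_shKDM2A, against 4.17 and 4.86 in Kyse150_shNC. Fragments ambiguous between genes, listed apart from the gene counts, made up 1.90% and 1.85% of all fragments in Kyse150_shKDM2A, against 1.93% and 1.96% in Kyse150_shNC. For genes that overlap, a ratio of counts therefore cannot be read as a ratio of RNA levels.

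**Figure D2:**
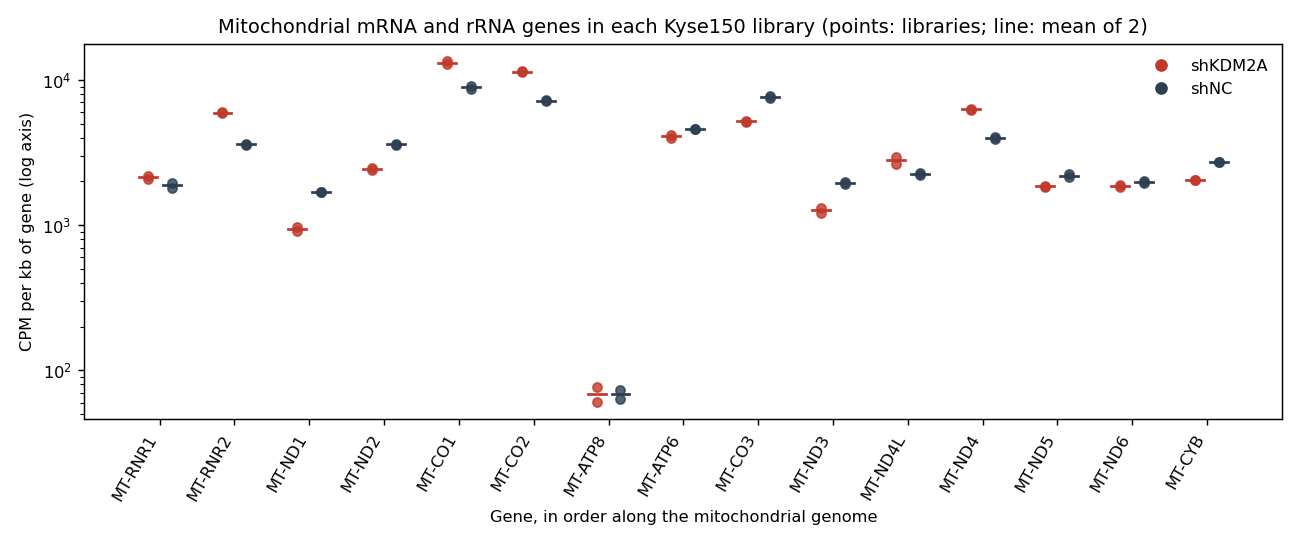
CPM per kilobase of annotated gene length (log axis) of the 15 mitochondrial mRNA and rRNA genes in each library, with Kyse150_shKDM2A and Kyse150_shNC as separate points. The groups are apart for 14 genes, and MT-ATP8 lies far under the others in every library.

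Levels were ordered per length, as CPM per kilobase. Fragments aligned to more than 1 place, listed apart from the gene counts, made up 6.77% and 6.78% of all fragments in Kyse150_shKDM2A, against 6.58% and 6.59% in Kyse150_shNC. How many of them belong to each mitochondrial gene is not known, so the order between genes carries that limit. In Kyse150_shKDM2A the order ran MT-CO1 (13156), MT-CO2 (11388), MT-ND4 (6282), MT-RNR2 (5934), MT-CO3 (5183) and MT-ATP6 (4092), and ended with MT-ND3 (1267), MT-ND1 (938) and MT-ATP8 (68.4). In Kyse150_shNC it ran MT-CO1 (8918), MT-CO3 (7640), MT-CO2 (7208), MT-ATP6 (4608), MT-ND4 (3968) and MT-RNR2 (3603), and ended with MT-RNR1 (1875), MT-ND1 (1694) and MT-ATP8 (68.4). MT-CO3 was thus in place 5 in Kyse150_shKDM2A and in place 2 in Kyse150_shNC, and MT-ND4 in place 3 in Kyse150_shKDM2A and place 5 in Kyse150_shNC. Neighbours in the order overlapped between libraries for MT-ND5 and MT-ND6 in Kyse150_shKDM2A, and in Kyse150_shNC for MT-RNR2 and MT-ND2, for MT-ND4L and MT-ND5, and for MT-ND6, MT-ND3 and MT-RNR1.

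Leaving out MT-ATP8, which was not called, the 13 called heavy-strand mRNA and rRNA genes were taken in order along the genome. Of their 12 neighbouring pairs, 7 had the same direction and the rest did not, and this count was not tested. MT-RNR1 and MT-RNR2 were higher, MT-ND1 and MT-ND2 lower, MT-CO1 and MT-CO2 higher, MT-ATP6, MT-CO3 and MT-ND3 lower, MT-ND4L and MT-ND4 higher, and MT-ND5 and MT-CYB lower. In MT-ATP6 and MT-CO3, which are cut from a shared transcript and share 1 base, the log2 fold changes were -0.22 and -0.61. Across the 15 mRNA and rRNA genes, Spearman's rho of the log2 fold change was -0.16 with GC content, 0.17 with length, 0.36 with the Kyse150_shNC level per kilobase and -0.14 with start position. These are descriptions across genes of the same libraries and have no test.

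Counts on the tRNA genes divided by coding strand before they divided by group. Of the 14 heavy-strand tRNA genes, 12 had 0 counts in all 4 libraries. The other 2 were MT-TW, with 4 and 1 counts in Kyse150_shKDM2A and 4 and 1 in Kyse150_shNC, and MT-TT, with 2 and 4 in Kyse150_shKDM2A and 6 and 7 in Kyse150_shNC. A count of 0 allows a level of up to 0.419 to 0.496 CPM (3 counts), a limit that covers counting error only. Of the 8 light-strand tRNA genes, 5 had 20 counts or more, MT-TC had 0 and MT-TN had 1 in all. MT-TA had 0 and 1 counts in Kyse150_shKDM2A, against 4 and 7 in Kyse150_shNC. Light-strand tRNA counts summed to 4752 and 3943 in Kyse150_shKDM2A, against 3798 and 3666 in Kyse150_shNC, whereas heavy-strand tRNA counts summed to 6 and 5 in Kyse150_shKDM2A, against 10 and 8 in Kyse150_shNC. MT-TS1 alone held 3830 and 3156 of the light-strand counts in Kyse150_shKDM2A, against 2888 and 2746 in Kyse150_shNC. These sums are not scaled to library size. Selection on poly(A) leaves out most mature tRNA, and the sources used here do not say how the counting treated fragments that span a tRNA and its neighbour. Nor do they say whether the counting used strand. Counts on a light-strand tRNA gene therefore cannot be told apart from reads of the opposite strand, and need not give the level of that tRNA.

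**Figure D3:**
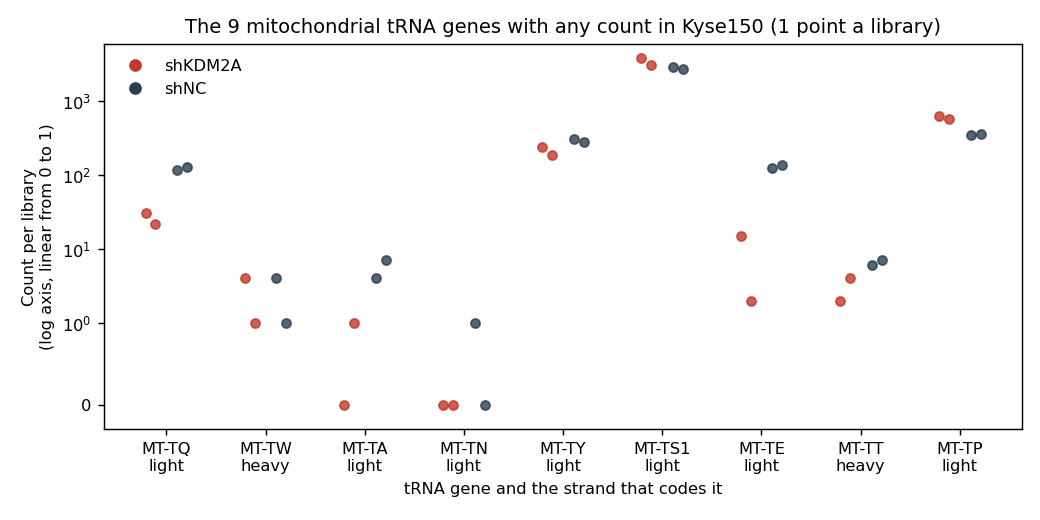
Counts of the tRNA genes in each library, in genome order, with the coding strand marked and Kyse150_shKDM2A and Kyse150_shNC as separate points. MT-TS1 reaches 3830 counts, the highest of any tRNA gene, while no heavy-strand tRNA gene passes 7.

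Of the 5 light-strand tRNA genes tested, 2 rose and 3 fell. MT-TP, next to the control region, stood at 95.4 and 94.5 CPM in Kyse150_shKDM2A, against 49.5 and 51.9 CPM in Kyse150_shNC (log2 0.86, SE 0.09, edgeR adjusted p = 9.34e-09). MT-TS1, which starts directly after MT-CO1, stood at 575 and 521 CPM in Kyse150_shKDM2A, against 403 and 390 CPM in Kyse150_shNC (log2 0.42, SE 0.06, edgeR adjusted p = 9.15e-07). Per 1000 MT-CO1 counts, MT-TS1 had 27.7 and 26.4 in Kyse150_shKDM2A, against 30.05 and 27.7 in Kyse150_shNC, ranges that nearly meet. MT-TP had 41.1 and 40.5 counts per 1000 MT-CYB counts in Kyse150_shKDM2A, against 15.98 and 16.6 in Kyse150_shNC.

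MT-TE, which lies between MT-ND6 and MT-CYB, had 15 and 2 counts in Kyse150_shKDM2A, against 126 and 138 in Kyse150_shNC. The fit gave log2 -3.83 (SE 0.33, edgeR adjusted p = 2.06e-10), and DESeq2 gave -3.89 with a wider SE of 1.06 (adjusted p = 0.00157). MT-TE met the count limit of the filter in Kyse150_shKDM2A replicate 1 but not in replicate 2. To be tested it also needed a Kyse150_shNC library that met the limit. A gene with these knockdown counts could thus be tested without differing between the groups. Its p-values still rest on few and unequal knockdown counts, and are weak support for the size of the fall. The ratio of summed counts scaled to library size was 0.0720 (exact 95% interval 0.0413 to 0.117, counting error only). The fall rests unequally on the knockdown libraries: with replicate 1 alone the ratio was 0.121 (0.0669 to 0.204), and with replicate 2 alone, which has 2 counts, 0.0178 (0.00214 to 0.0649). The fitted log2 value was -5.80 without Kyse150_shKDM2A replicate 1 and -3.08 without replicate 2.

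MT-TQ, the tRNA for glutamine, had 31 and 22 counts in Kyse150_shKDM2A, against 116 and 131 in Kyse150_shNC, and fell to 0.232 of control (log2 -2.11, SE 0.23, edgeR adjusted p = 1.42e-08). It overlaps the heavy-strand tRNA gene MT-TI by 3 bases and lies between MT-ND1 and MT-ND2, which also fell. Relative to MT-ND1, MT-TQ had 5.04 and 4.18 counts per 1000 in Kyse150_shKDM2A, against 10.0 and 11.5 in Kyse150_shNC. MT-TY had 241 and 190 counts in Kyse150_shKDM2A, against 308 and 279 in Kyse150_shNC, log2 -0.34 (SE 0.12, edgeR adjusted p = 0.0192). The call of MT-TY was lost with DESeq2 (log2 -0.34, adjusted p = 0.126), without Kyse150_shKDM2A replicate 2 (-0.23, 0.183) and without Kyse150_shNC replicate 1 (-0.29, 0.115).

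Nuclear chromosomes carry old insertions of mitochondrial DNA whose sequences resemble the genes described here. The closest annotated copies of MT-ND2, MT-CO1, MT-CO2 and MT-ATP6 lie together on chromosome 1 and were 98.4%, 98.6%, 98.0% and 98.5% identical to them. The pair MT-ATP6 and MTATP6P1 (chr1:633696-634376, GRCh38) held the highest count of a copy in Kyse150, so an 80-base window of both is shown, from chrM:8639-8718 and chr1:633808-633887, forward strand, with the 4 differing bases in capitals.
MT-ATP6: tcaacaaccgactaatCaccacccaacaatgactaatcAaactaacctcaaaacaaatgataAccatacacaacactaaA
MTATP6P1: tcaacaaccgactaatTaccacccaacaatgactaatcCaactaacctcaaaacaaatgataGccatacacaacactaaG

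Nuclear copies took a small part of Kyse150 counts. The 402 copies in that table held 0.0614% and 0.0605% of gene counts in Kyse150_shKDM2A, against 0.0658% and 0.0661% in Kyse150_shNC, and 7 of them had 10 counts or more over the 4 libraries. MTATP6P1 had 2946 and 2619 counts in Kyse150_shKDM2A, against 2997 and 2956 in Kyse150_shNC, and the fit gave log2 0.01 (SE 0.05, edgeR adjusted p = 0.864). MTND2P28 had 845 and 756 counts in Kyse150_shKDM2A, against 1470 and 1473 in Kyse150_shNC, and fell as MT-ND2 did (log2 -0.77, SE 0.07, edgeR adjusted p = 3.80e-10). MTCO1P12 had 215 and 204 counts in Kyse150_shKDM2A, against 183 and 168 in Kyse150_shNC (log2 0.37, SE 0.13, edgeR adjusted p = 0.0215), and lost its call with DESeq2 (0.36, adjusted p = 0.149) and without Kyse150_shKDM2A replicate 1, Kyse150_shKDM2A replicate 2 or Kyse150_shNC replicate 2 (adjusted p between 0.0686 and 0.116).

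MTND5P11 had 41 and 37 counts in Kyse150_shKDM2A, against 28 and 23 in Kyse150_shNC (log2 0.72, SE 0.29, edgeR adjusted p = 0.0397). That call was lost without each of the 4 libraries in turn (adjusted p between 0.0608 and 0.173), with no filter on low counts (0.0610) and with DESeq2 (0.248). MTND4P12 was not called, with 10 and 18 counts in Kyse150_shKDM2A, against 13 and 9 in Kyse150_shNC. MTCO1P28 and MTND5P28, each with 5 counts or fewer in a library, were not tested. From counts alone it cannot be told which sequence a fragment came from.

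**Figure D4:**
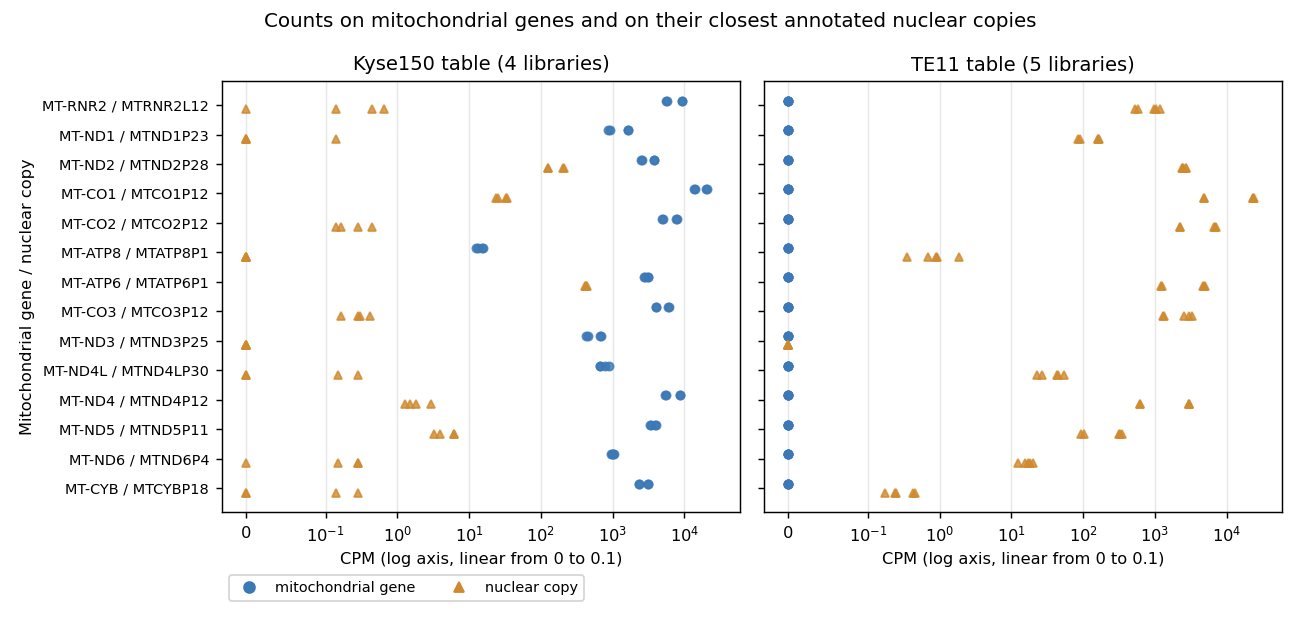
CPM (log axis, linear from 0 to 0.1) of 14 mitochondrial genes (circles) and their closest annotated nuclear copies (triangles), 1 point a library, in the Kyse150 table (left) and the TE11 table (right). In Kyse150 the mitochondrial gene is the higher of each pair, whereas in TE11 each mitochondrial gene is listed at 0 and most triangles lie further right than in Kyse150.

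In the TE11 table all 37 mitochondrial genes are listed at 0 in all 5 libraries, so no level of theirs can be given. Their nuclear copies held 1.34% and 1.35% of gene counts in the libraries labelled TE11 knockdown, against 4.67%, 4.58% and 4.45% in the TE11 controls. KDM2A was not lower in the libraries labelled knockdown, at 128 and 141 CPM there, against 119, 115 and 119 CPM in the controls. The tables list different genes and were made separately, and the sources used here do not say which genome sequences each alignment used.

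Mitochondrial transcripts are made and processed by proteins coded in the nucleus. Beside them, 4 lists were described, which also cover nuclear regulators of transcription, mtDNA replication and nucleotide supply. The lists hold 97 nuclear genes. Of these, 96 are in the table and 94 were tested: 8 were higher and 48 lower in Kyse150_shKDM2A, and 38 were not called, with a median log2 fold change of -0.28, against 24.8% higher, 23.3% lower and a median of 0.00 over all genes tested. The counts were 3 higher and 9 lower of 16 tested in the list of transcription (median -0.37), 2 and 9 of 22 in mtDNA maintenance (-0.20), 1 and 18 of 28 in RNA processing and decay (-0.36), and 3 and 12 of 29 in tRNA and rRNA modification (-0.21). With DESeq2, 3 of the listed genes were higher and 34 lower, beside 2156 higher and 2181 lower over all genes. With library sizes alone as the scaling 11 were higher and 41 lower, beside 3871 higher and 2806 lower over all genes. The main fit called 3490 higher and 3281 lower over all genes.

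**Figure D5:**
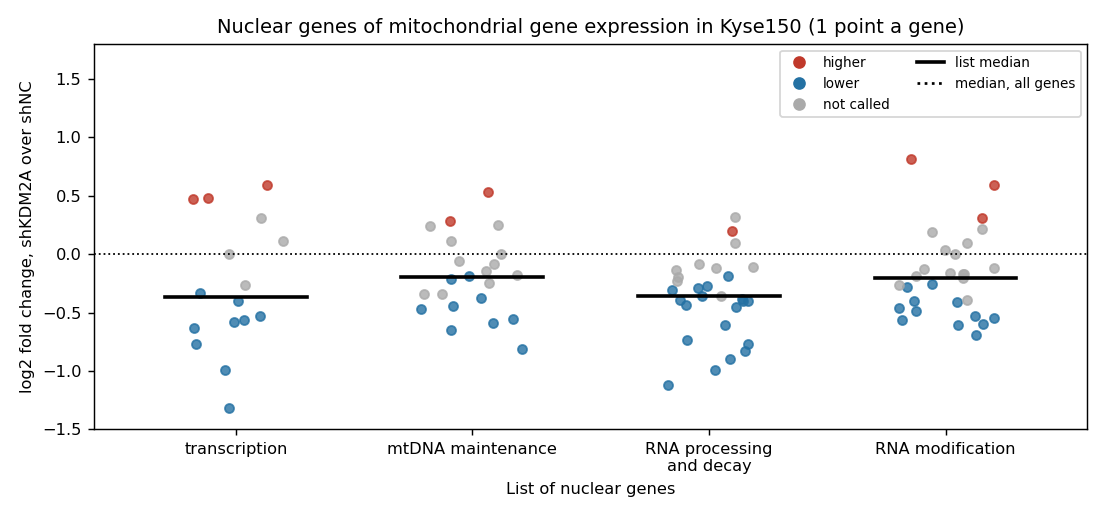
Log2 fold change (Kyse150_shKDM2A over Kyse150_shNC) of each tested nuclear gene in 4 lists, 1 point a gene, coloured by call, with the list median as a bar and the median of all genes as a dotted line. Every list median lies under the dotted line.

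In transcription, POLRMT and TFAM went opposite ways. POLRMT, the mitochondrial RNA polymerase, stood at 163 and 156 CPM in Kyse150_shKDM2A, against 109 and 112 CPM in Kyse150_shNC (log2 0.48, SE 0.07, edgeR adjusted p = 3.45e-06). TFAM, which packages mtDNA and opens its promoters, stood at 49.9 and 62.3 CPM in Kyse150_shKDM2A, against 114 and 101 CPM in Kyse150_shNC, and fell to 0.502 of control (log2 -0.995, SE 0.10, edgeR adjusted p = 2.02e-09). MTERF1, a termination factor that binds after the 16S rRNA gene, fell to 0.402 of control (log2 SE 0.18) and PPRC1, a coactivator, to 0.694 (SE 0.07). TFB2M, which melts the promoter, fell to 0.756 of control (SE 0.09). TEFM, the elongation factor, fell to 0.585 (SE 0.22, edgeR adjusted p = 0.00559), and DESeq2 did not call it (adjusted p = 0.0758), nor did the fits without Kyse150_shKDM2A replicate 1 or without Kyse150_shNC replicate 1.

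In mtDNA maintenance, SSBP1, the single-strand binding protein, fell to 0.680 of control (log2 SE 0.08) and TOP3A, a topoisomerase, to 0.769 (SE 0.08). ATAD3A and ATAD3B, nucleoid-associated ATPases, fell to 0.666 and 0.637 of control (SE 0.08 each), but they are near-identical copies between which reads may be split. In RNA processing, TRMT10C, a subunit of the RNase P that cuts tRNA 5′ ends, stood at 20.7 and 25.4 CPM in Kyse150_shKDM2A, against 44.9 and 43.5 CPM in Kyse150_shNC, and fell to 0.503 of control (SE 0.13). PDE12, which removes poly(A), fell to 0.537 (SE 0.09), PNPT1, the RNA-degrading polynucleotide phosphorylase, to 0.601 (SE 0.10), and C1QBP, a matrix protein, to 0.757 (SE 0.05). FASTKD5, needed for the maturation of mRNAs whose ends are not tRNAs, fell to 0.562 (SE 0.13).

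LRPPRC and SLIRP, which together bind and stabilise the mRNAs, fell to 0.808 (log2 SE 0.07) and 0.738 (SE 0.08) of control. MTPAP, the mitochondrial poly(A) polymerase, stood at 24.6 and 26.6 CPM in Kyse150_shKDM2A, against 28.9 and 29.1 CPM in Kyse150_shNC, and was not called (log2 -0.23, SE 0.13, edgeR adjusted p = 0.158). In modification, NSUN2, a methyltransferase of tRNA, fell to 0.683 of control (SE 0.07), QTRT2, of queuosine synthesis, to 0.620 (SE 0.10), TRUB2, a pseudouridine synthase, to 0.660 (SE 0.09) and MRM2, a methyltransferase of 16S rRNA, to 0.656 (SE 0.09). The other members that rose were ESRRA, TFB1M, TK2, LONP1, TBRG4, NSUN4 and OSGEPL1, also named after their values were seen. Their log2 fold changes lay between 0.20 in TBRG4 and 0.82 in OSGEPL1. Of these, TFB1M, TK2, TBRG4, NSUN4 and OSGEPL1 lost their call with DESeq2, with adjusted p between 0.0506 and 0.207, and each lost it too when some libraries were left out. The lowest log2 values were then 0.16 in NSUN4 (adjusted p = 0.457) and 0.52 in OSGEPL1 (0.245), both without Kyse150_shKDM2A replicate 1, and 0.31 in TFB1M (0.335) without Kyse150_shKDM2A replicate 2. They were 0.13 in TBRG4 (0.199) without Kyse150_shNC replicate 1 and 0.39 in TK2 (0.0756) without Kyse150_shNC replicate 2.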

How the data were processed

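Each cell line has 1 table of gene-level counts deposited by the authors, whole numbers with no scaling applied. Tools named in the submitters' processing notes are bcl2fastq 2.19, HISAT2 2.1.0, HTSeq 0.9.1 and DESeq2. Those notes list GRCh37.p13 as well as GRCh38.p13 and do not tie either to a table. Per the labels' protocols, RNA was selected with oligo(dT) beads and sequenced from both ends. Groups and replicate numbers were read from sample titles. The summary rows of the counting entered neither library sizes nor tests. Whether strand was used is also not stated in those notes.

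The whole Kyse150 table was filtered with filterByExpr (at least 10 counts, total at least 15), given TMM factors of 0.9775 to 1.024 and tested with edgeR 4.0.16 in R 4.3.3 (quasi-likelihood test, robust, on a model of group alone), where p-values were adjusted by Benjamini-Hochberg across every gene tested and called under 0.05. Fold changes and SE come from that fit, and CPM and CPM per kilobase from counts over the sum of gene counts, so CPM ratios differ slightly from fitted folds. On simulated data the fit recovered 69% of 1.5-fold and 89% of 2-fold changes, and 5.39% of its calls were false. The simulation gave every gene the same spread and changed far fewer genes than were called here, so these rates may not hold for the real data.

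Positions, strands and transcript sequences came from GENCODE release 29 on GRCh38, which named 90.5% of the Kyse150 identifiers together with a table of gene names. Nuclear copies were taken by symbol and aligned to the mitochondrial genes with blastn 2.17.0, keeping the copy of highest identity over at least 30% of the gene. Figures were drawn with Python 3.11.15. The genes to name were all 37 mitochondrial genes, KDM2A, the 4 nuclear genes of each list with the smallest p, 8 nuclear genes fixed by name, of which POLRMT and TFAM are also among those, and each nuclear copy with 10 counts or more. The members, lists and tests were chosen with earlier results of these data known. The alternatives tried were DESeq2 1.42.0 as the test, 3 scalings, 2 filters, a replicate block, leaving out each library, and adding nuclear copies' counts to their gene.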

Additional observations from a re-analysis of the deposited data

Results flagged for a closer look

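For 3 nuclear copies of mitochondrial genes the libraries labelled knockdown lay on opposite sides of the controls in CPM in the 2 lines: each Kyse150_shKDM2A library lay above each Kyse150_shNC library, and each library labelled TE11 knockdown lay under each TE11 control. In Kyse150, 73.1% of all genes tested had groups that did not overlap in CPM, and the share in TE11 was not computed. MTND2P28 was the only other copy with enough counts in both lines to be compared. MTCO1P12 had a ratio of mean CPM of 1.34 in Kyse150 and 0.205 in TE11. MTATP6P1 had a ratio of 1.04 in Kyse150 and 0.251 in TE11. MTND5P11 had a ratio of 1.71 in Kyse150 and 0.296 in TE11. These differences between the lines were not tested, and the tables were made separately. In TE11 all 37 mitochondrial genes are listed at 0. MTCO1P12 stood there at 4863 and 4849 CPM in the libraries labelled knockdown, against 24370, 23471 and 23325 CPM in the controls. In Kyse150 it stood at 32.3 and 33.7 CPM, against 25.5 and 23.9 CPM. Counts on a copy may thus not measure the same RNA in the 2 tables, and their ratios cannot be compared as levels of the copies. In the Kyse150 fit MTATP6P1 was not called (log2 0.01, edgeR adjusted p = 0.864) and its sign turned with a library left out. MTCO1P12 and MTND5P11 lost their Kyse150 calls with DESeq2, and without 3 of the 4 libraries in turn for MTCO1P12 and each of the 4 for MTND5P11. MTND2P28 was lower in both lines, at 0.608 in Kyse150 and 0.911 in TE11. In TE11 its ranges nearly met, at 2444 and 2386 CPM in the libraries labelled knockdown, against 2759, 2733 and 2458 CPM in the controls.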

How the results depend on the processing

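Over 12 alternatives, 16 of the 20 tested mitochondrial genes kept their call and direction. The exceptions were MT-RNR1, MT-TY and MT-ND6, which lost their call under the settings given beside them and, for MT-RNR1 and MT-ND6, under the replicate block, and MT-ATP8, never called, whose log2 fold change ran from -0.23 to 0.10 with a library left out, positive without Kyse150_shKDM2A replicate 1 (0.10) and without Kyse150_shNC replicate 2 (0.06). Of the nuclear copies, MTATP6P1 and MTND4P12, never called, ran from -0.017 to 0.035 and from -0.085 to 0.87 with a library left out. MTATP6P1 was negative without Kyse150_shKDM2A replicate 1 or Kyse150_shNC replicate 1, and MTND4P12 without Kyse150_shKDM2A replicate 2. DESeq2 called 4337 genes in place of 6771, with 2156 higher and 2181 lower, and 3 listed nuclear genes higher in place of 8 and 34 lower in place of 48. The cause was not tested.

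Leaving out each library gave 5409 to 5916 genes called, 2757 to 2965 higher and 2652 to 2962 lower, with 7 to 8 mitochondrial genes higher and 9 to 11 lower, and 6 to 9 listed nuclear genes higher and 39 to 42 lower. Replicate numbers pair the samples only by number (correlation of deviations -0.04 over 14060 genes). The replicate block gave 6395 calls, with 7 mitochondrial genes higher and 10 lower. Under the block, MT-RNR1 (log2 0.14, adjusted p = 0.0947), MT-ND6 (-0.16, 0.0748) and NSUN4 (0.31, 0.0517) were not called. Adding the counts of the nuclear copies to each gene, an alternative chosen after seeing the data, left 8 higher and 11 lower. With all fragments as the denominator the mitochondrial share averaged 2.80% in Kyse150_shKDM2A and 2.36% in Kyse150_shNC. For the protein-coding genes alone it averaged 5.50% in Kyse150_shKDM2A and 4.81% in Kyse150_shNC. Low counts limit MT-TE, MT-TQ and the 17 tRNA genes not tested.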
